A study of Homo sapiens with 2 samples.

Results

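The genes of the heme synthesis enzymes were followed in NB4 cells after knockdown of the long non-coding RNA CRNDE. The 7 members, ALAS1, ALAD, UROS, UROD, CPOX, PPOX and FECH, were taken by gene symbol, and all 7 are among the 11619 genes that both libraries list. NB4 is a human line of acute promyelocytic leukemia cells in which the PML/RARα fusion is present. The cells were infected with lentivirus for an shRNA against CRNDE (sh-CRNDE, knockdown) or for a non-targeting control shRNA (sh-Control, control), and RNA was taken on day 3. Each group is 1 library, so no value below has a replicate error and no p-value is given. Carriers of the vector were selected by a fluorescent protein, and the labels do not say which of the CRNDE shRNAs was sequenced.

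Heme is built in a chain of reactions that starts in the mitochondrion, passes through the cytosol and ends in the mitochondrion, where iron is inserted into protoporphyrin. ALAS1 encodes the first and rate-limiting enzyme in non-erythroid cells, and heme itself feeds back on it. Promyelocytes need heme for myeloperoxidase, the most abundant protein of their primary granules.

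Values are FPKM, fragments scaled to transcript length and to the mapped fragments of the library, and so can be compared between genes per length. A change is log2(FPKM + 1) after knockdown minus log2(FPKM + 1) in control cells, which understates the change of low genes. A gene is called past 1.5-fold when its change is over 0.585 in either direction. The depth behind these values is unknown, because FPKM values keep no read counts. Without the mitochondrially encoded genes, of which the rRNA gene MT-RNR2 was listed at 0 in control cells and at 27614 FPKM after knockdown, the values summed to 141046 in sh-Control and 142618 in sh-CRNDE. CRNDE itself was at 5.92 FPKM in control cells and 1.85 FPKM after knockdown, with a change of -1.28. Promyelocyte identity was checked on a list of 10 markers, of which 9 were listed. In sh-Control their levels ran from 0.748 FPKM for CEBPE, the lowest, to 1135 FPKM for MPO, above 99.98% of listed genes. Of 15 erythroid markers, the transcription factor gene GATA1 alone was listed, at 1.74 FPKM in control cells and 1.06 FPKM after knockdown, and the globin genes and ALAS2, the erythroid isozyme, were not analysed here.

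None of the 7 heme synthesis genes was past 1.5-fold, against 17.2% of all listed genes, with 8.38% higher and 8.83% lower. Their changes ran from -0.41 for CPOX to 0.19 for UROS. Their median was -0.11, beside -0.01 over all genes, whose central 50% lay between -0.26 and 0.23. There were 5 members lower and 2 higher in sh-CRNDE, and over all genes 5906 were lower and 5713 higher. The FPKM values of the 7 genes summed to 55.6 in control cells and 48.9 after knockdown. Whether any of these differences is larger than the spread between cultures cannot be said with 1 library per group. In RNA from a whole culture, fewer cells that express a gene and less RNA per cell cannot be told apart.

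ALAS1, which joins glycine and succinyl-CoA to aminolevulinic acid, was the most abundant member, with 21.8 FPKM in control cells and 17.9 FPKM after knockdown. Its change was -0.27, and 23.9% of all genes had a lower one. ALAD, which condenses aminolevulinic acid to porphobilinogen, was at 2.08 FPKM in control cells and 2.38 FPKM after knockdown, with a change of 0.13. The first enzyme was thus lower and the second higher in sh-CRNDE, both by less than 1.5-fold.

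UROS closes the linear tetrapyrrole into uroporphyrinogen III. It was at 6.30 FPKM in control cells and 7.35 FPKM after knockdown, with a change of 0.19, the highest of the members. UROD, which removes carboxyl groups from the side chains of that ring, was at 10.9 FPKM in control cells and 10.1 FPKM after knockdown, with a change of -0.10. Among all genes, 71.5% had a lower change than UROS and 39.8% a lower change than UROD, so both lay within that central range.

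CPOX, the coproporphyrinogen oxidase of the mitochondrial intermembrane space, differed most between the libraries. It was at 10.1 FPKM in control cells and 7.40 FPKM after knockdown, a ratio of 0.731 and a change of -0.41. A lower change than that of CPOX was found in 15.6% of all genes. PPOX, which oxidizes the ring to protoporphyrin, was the least abundant member, with 1.28 FPKM in control cells and 0.945 FPKM after knockdown. Its ratio of 0.739 was close to that of CPOX, while its change of -0.23 was smaller, since the added pseudocount of 1 weighs more at low values. FECH, the ferrochelatase that inserts iron, was at 3.15 FPKM in control cells and 2.84 FPKM after knockdown, with a change of -0.11. CPOX and ALAS1 were thus the only members outside the central 50% of all genes.

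**Figure D1:**
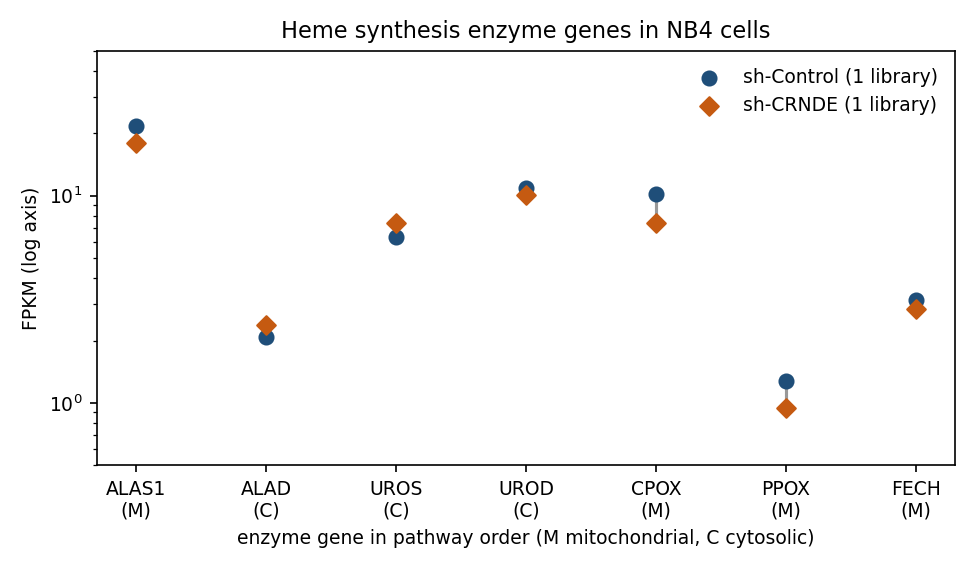
FPKM on a log axis of the 7 heme synthesis members, in pathway order, in the sh-Control library (circles) and the sh-CRNDE library (diamonds), with 1 library each and no error bars. ALAS1 is highest and PPOX lowest in both libraries, and UROS and ALAD alone have the diamond above the circle.

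The order of the levels was the same in both libraries. From the highest down it ran ALAS1, UROD, CPOX, UROS, FECH, ALAD and PPOX. ALAS1 exceeded PPOX 17.0-fold in sh-Control and 18.9-fold in sh-CRNDE. Neighbours were close in places: UROD and CPOX were at 10.9 and 10.1 FPKM in sh-Control, and CPOX and UROS at 7.40 and 7.35 FPKM in sh-CRNDE. Without replicates it cannot be said which neighbours differ. In sh-Control, ALAS1 was above 88.9% of listed genes and PPOX above 24.2%.

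**Figure D2:**
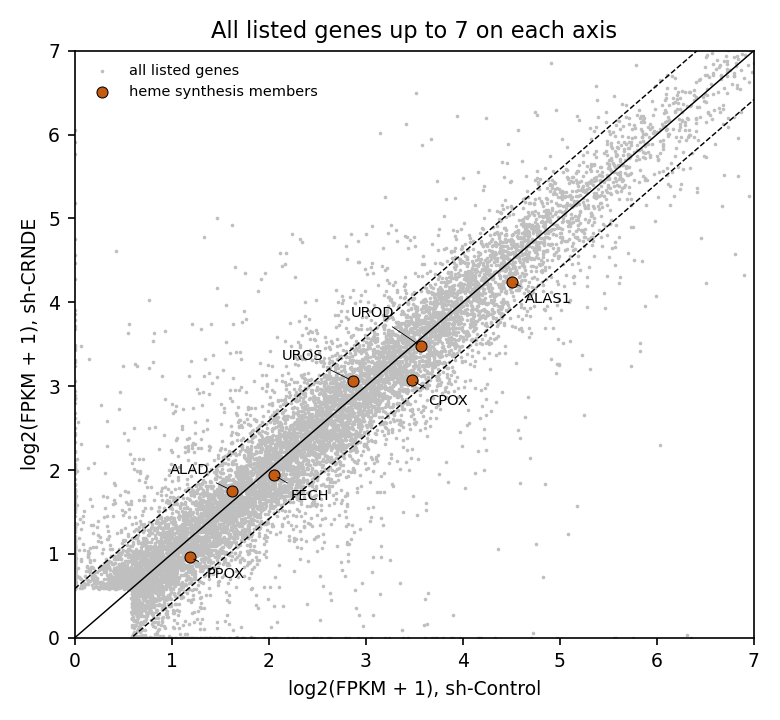
log2(FPKM + 1) of each listed gene in sh-Control (x axis) and sh-CRNDE (y axis), up to 7 on each axis, with the heme synthesis members as large points. The solid line marks equal values and the dashed lines 1.5-fold, and all 7 members lie between the dashed lines.

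Grouped by compartment, a grouping made after the values were seen, the mitochondrial enzymes ALAS1, CPOX, PPOX and FECH were all lower in sh-CRNDE, with a median change of -0.25. Their FPKM values summed to 36.3 in control cells and 29.1 after knockdown. Of the cytosolic enzymes ALAD, UROS and UROD, 2 were higher and 1 lower, and their sum was 19.3 FPKM in control cells and 19.8 FPKM after knockdown. This difference between the compartments rests on 4 and 3 genes and was not tested. Across all genes the change fell with the GC content of the transcript, from a median of 0.20 in the lowest of 20 bins to -0.35 in the highest. When the median of genes with like GC content was taken off each change, CPOX (46.6% GC) was at -0.49 and ALAS1 at -0.23, PPOX (59.1% GC) moved to -0.05, and UROD moved to the other side of 0, at 0.04. UROS was at 0.33 on this scale. Under the other scalings and pseudocounts each of the 7 genes kept its direction, and no setting took a member past 1.5-fold.

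**Figure D3:**
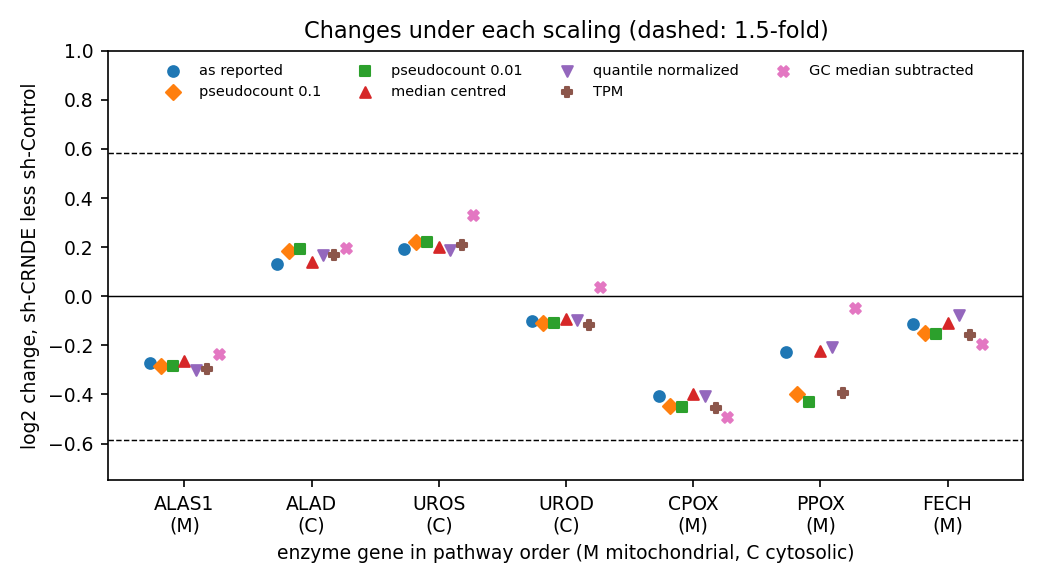
Change of each enzyme gene, sh-CRNDE less sh-Control on a log2 scale, in pathway order, as reported and under 6 other scalings or pseudocounts, with 1.5-fold as dashed lines. All points lie between the dashed lines, and UROD crosses 0 only after the GC subtraction.

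The study asked whether CRNDE acts through the miR-181 family, small RNAs that lower messages carrying a match to their seed, bases 2 to 8. The mature sequences (RefSeq, GRCh38.p14) are shown with the seed in capitals, because all 4 share it.
hsa-miR-181a-5p: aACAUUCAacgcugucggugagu
hsa-miR-181b-5p: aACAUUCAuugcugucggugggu
hsa-miR-181c-5p: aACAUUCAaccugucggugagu
hsa-miR-181d-5p: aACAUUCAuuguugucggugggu

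The complement of that seed, TGAATGT, was searched in the 3′ UTR of the canonical transcript of each gene (GENCODE release 44, GRCh38). CPOX holds 3 matches in a 3′ UTR of 1237 bases and FECH 1 in 6335 bases. ALAS1, ALAD, UROS, UROD and PPOX hold 0. Of the 9907 listed genes with such a 3′ UTR, 21.4% hold a match and 1.45% hold 3 or more. CPOX was chosen for display with its change known, and a link between its matches and its change was not tested. The CPOX matches lie on the minus strand of chromosome 3 and are shown 5′ to 3′ with the match in capitals.
CPOX, match at chr3:98579957-98579963: ctctgcactttTGAATGTgaaagcttata
CPOX, match at chr3:98579625-98579631: ttcatatattaTGAATGTattattttatt
CPOX, match at chr3:98579546-98579552: gtggaacacgtTGAATGTttgtgattctg

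A seed match is a description of the sequence and not a measured site. Over the 9907 listed genes whose 3′ UTR was searched, the median change was 0.05 with a match and -0.03 without one, beside -0.41 for CPOX. These medians were not adjusted for GC content or 3′ UTR length, and their difference was not tested. FECH, with 1 match, had a change of -0.11, within the range of the members without a match, from -0.27 to 0.19.

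Promoter windows of 300 bases, 250 before and 50 after a start site (RefSeq, GRCh38.p14), were found for 6 of the 7 members, and ALAD and PPOX have more than 1 window. They were searched on both strands for a core of the NRF1 motif, GCGCANGCG, for the GATA motif as these letters with an A or T before and an A or G after them, and for the antioxidant response element that NFE2L2 and BACH1 share with small MAF proteins, as TGACNNNGC with a C or a G as the fourth letter. The NRF1 core was in the window of ALAS1 and in none of the other 7 of 8 member windows, against 7.52% of 35116 windows of all genes. The GATA motif was in 3 of the 8 windows, those of CPOX, ALAD and PPOX, against 8769 of the 35116 windows of all genes. The response element was in 3 of the 8, those of UROD, CPOX and FECH, against 29.1% of all. The windows of ALAS1 and CPOX, the members outside that central range on the log2(FPKM + 1) scale, are shown with the matches in capitals. That of ALAS1 lies at chr3:52197833-52198132 on the plus strand and that of CPOX at chr3:98593562-98593861 on the minus strand.
ALAS1: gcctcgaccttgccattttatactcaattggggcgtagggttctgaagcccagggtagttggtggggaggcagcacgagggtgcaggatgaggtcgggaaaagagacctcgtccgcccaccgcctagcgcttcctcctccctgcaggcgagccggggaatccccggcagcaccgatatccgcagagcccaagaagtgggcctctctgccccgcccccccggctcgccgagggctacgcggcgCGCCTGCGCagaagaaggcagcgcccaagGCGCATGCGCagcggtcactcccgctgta
CPOX: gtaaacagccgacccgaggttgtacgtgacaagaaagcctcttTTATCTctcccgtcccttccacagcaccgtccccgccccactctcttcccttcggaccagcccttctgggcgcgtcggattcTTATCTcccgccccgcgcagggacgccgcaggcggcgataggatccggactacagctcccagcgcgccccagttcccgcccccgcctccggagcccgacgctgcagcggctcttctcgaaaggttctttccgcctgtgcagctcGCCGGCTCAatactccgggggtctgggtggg

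ALAS1 holds 3 matches to the NRF1 core, 2 of which overlap near the end of the window as a palindrome. CPOX holds 2 GATA matches, both read on the opposite strand, and 1 response element match. A match is letters in a window and does not show that a factor was bound.

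Among genes that respond to heme or set the level of its synthesis, 13 of a list of 15 were listed. Of these, 3 were higher and 2 lower past 1.5-fold, a share of 38.5% beside 17.2% of all listed genes. BACH1, a repressor that heme binds and releases from DNA, was at 3.09 FPKM in control cells and 8.48 FPKM after knockdown, with a change of 1.21. NFE2L2, the activator that competes with it, was at 6.07 FPKM in control cells and 11.5 FPKM after knockdown, with a change of 0.83. Their small MAF partners moved apart, MAFG with a change of 2.34, from 1.64 to 12.4 FPKM, and MAFK with -1.10, from 12.2 to 5.15 FPKM. GATA2, a transcription factor of early hematopoietic cells, was at 10.1 FPKM in control cells and 3.76 FPKM after knockdown, with a change of -1.22. NRF1, whose motif core is in the ALAS1 window, had a change of -0.17. EIF2AK1, the heme-regulated kinase that slows translation when heme is short, was at 37.3 and 38.7 FPKM, with a change of 0.05. Over the list the median was -0.04.

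Of 14 listed genes of precursor and mitochondrial transport, 2 were higher and 1 lower past 1.5-fold, with a median change of -0.06. This share of 21.4% is near the 17.2% of all listed genes. SLC25A38, the carrier that brings glycine for ALAS1 into the mitochondrion, was at 8.27 FPKM in control cells and 16.5 FPKM after knockdown, with a change of 0.92. ABCB10, a transporter of the inner membrane needed for heme synthesis, had a change of 0.66, from 26.4 to 42.3 FPKM, which was 0.5838 and just under the threshold after this GC subtraction. TSPO, a porphyrin-binding protein of the outer membrane, had a change of -0.86, from 24.9 to 13.3 FPKM, and of -0.51 after that subtraction.

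For the substrate of ALAS1 and the turnover of the enzyme, all 10 genes were listed, with a median change of -0.22. Past 1.5-fold, 1 was higher and 0 lower, a share of 10% beside 17.2% of all listed genes. SUCLA2, a subunit of the enzyme that interconverts succinyl-CoA and succinate, was at 15.9 FPKM in control cells and 25.3 FPKM after knockdown, with a change of 0.64, and of 0.47 after the GC subtraction. CLPX, a subunit of a mitochondrial protease complex that acts on ALAS1, was at -0.47 and became the single call of the list after that subtraction, as a lower one at -0.60, and is named after its value was seen. LONP1, a mitochondrial protease, and OGDH, a subunit of the enzyme that makes succinyl-CoA, lay just under the threshold at -0.57 each and are named after their values were seen. With a pseudocount of 0.1 the list held 3 genes past 1.5-fold.

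Iron enters the pathway at its last step. Of 12 listed genes of iron uptake, storage and release, 1 was higher and 2 lower past 1.5-fold, with a median change of -0.18. That share of 25% compares with 17.2% of all listed genes. FTH1, the heavy chain of the iron store ferritin, was at 253 FPKM in control cells and 114 FPKM after knockdown, with a change of -1.14. NCOA4, the receptor that takes ferritin to the lysosome, was lower as well, at 88.8 and 52.7 FPKM, with a change of -0.74. ACO1, which as an iron regulatory protein binds ferritin messages, had a change of 0.64, from 2.33 to 4.19 FPKM, and of 0.56 after the GC subtraction. FTH1 has many processed copies in the genome, and the files do not show how shared reads were assigned.

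FECH carries an iron-sulfur cluster. All 14 genes of a list for the assembly of such clusters were listed, with 1 higher and 2 lower past 1.5-fold and a median change of -0.15. Here too the share was 21.4%, near that of all listed genes. LYRM4, a partner of the cysteine desulfurase, was at 0.432 and 1.83 FPKM, with a change of 0.98. All listed genes are above 0.5 FPKM in at least one library, so LYRM4 is listed through sh-CRNDE alone, where it is high. ISCA2 and ISCA1, which act late in assembly, had changes of -1.61, from 5.50 to 1.14 FPKM, and -1.05, from 4.01 to 1.43 FPKM.

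On a list of 10 genes of heme-containing proteins of myeloid cells, the 9 listed were all lower in sh-CRNDE. Of these, 3 (33.3%) were lower past 1.5-fold, and the median change was -0.32. Among all 11619 listed genes, 5906 were lower and 8.83% were lower past 1.5-fold. CYB5A, at 0.648 and 0.389 FPKM, was listed through sh-Control alone and so could only be lower. It is named after its value was seen. MPO, which encodes myeloperoxidase, was at 1135 FPKM in control cells and 738 FPKM after knockdown, with a change of -0.62. The change of MPO was -0.44 after the GC subtraction and -1.54 after quantile normalization. EPX, the eosinophil peroxidase gene, had a change of -1.08, from 28.8 to 13.1 FPKM, and CYBB, the heme-binding subunit of the phagocyte oxidase, one of -0.65, from 41.95 to 26.4 FPKM. The ratio of sh-CRNDE to sh-Control was 0.650 for MPO, below that of every heme synthesis member, the lowest of which was CPOX at 0.731. After the GC subtraction this order turned, with CPOX at -0.49 and MPO at -0.44. Of the other 8 listed markers of promyelocytes, 5 were lower past 1.5-fold (AZU1, PRTN3, CTSG, MS4A3 and PRSS57). CEBPE was higher, from 0.748 FPKM in control cells to 8.75 FPKM after knockdown, with a change of 2.48. With MPO, 77.8% of these markers were past 1.5-fold, beside 17.2% of all listed genes. The summed level of all 9 was 1507 FPKM in control cells and 896 FPKM after knockdown, most of it MPO, and without MPO it was 372 FPKM and 158 FPKM. Their part in the values of the heme genes was not tested. Of 8 lymphoid markers, 4 were listed, and 25% of these were past 1.5-fold, beside 17.2% of all listed genes. CD79A, listed through sh-Control alone, was lower past 1.5-fold, at 1.02 and 0.256 FPKM, with a change of -0.46 after the GC subtraction. NKG7, the highest of the 4, was at 14.8 FPKM in control cells and 11.9 FPKM after knockdown, and is named after its value was seen.

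The electron carriers of the respiratory chain are a separate use of heme. The list for it holds enzymes that make them and the cytochrome genes CYC1 and CYCS. All 5 genes of this list were listed, with 1 higher and 1 lower past 1.5-fold and a median change of 0.08. The share of 40%, beside 17.2% of all listed genes, rests on these 5 genes. COX10, which starts the conversion of heme to the heme A of cytochrome oxidase, was at 3.82 FPKM in control cells and 9.18 FPKM after knockdown, with a change of 1.08. CYC1, cytochrome c1, had a change of -0.66, from 46.95 to 29.3 FPKM, and of -0.44 after the GC subtraction. CYCS, the gene of cytochrome c, was at 85.6 and 99.7 FPKM, with a change of 0.22, and is named after its value was seen.

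Of 9 genes of heme breakdown and export, 6 were listed, 1 was higher past 1.5-fold, and the median change was 0.18. This share of 16.7% is near the 17.2% of all listed genes. SLC48A1, a heme transporter of the endosomal and lysosomal membrane, was at 0.723 FPKM in control cells and 2.49 FPKM after knockdown, with a change of 1.02. The inducible heme oxygenase gene HMOX1 was not analysed here. HMOX2, the constitutive form, was at 9.40 FPKM in control cells and 11.2 FPKM after knockdown, with a change of 0.23, and is named after its value was seen.

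The members lie on 5 chromosomes in GENCODE release 44 on GRCh38. ALAS1 (ENSG00000023330) runs from 52198086 to 52214327 on chromosome 3, plus strand, with 12 exons in its canonical transcript, and CPOX (ENSG00000080819) from 98579446 to 98593648 on the minus strand of the same chromosome, with 7 exons. UROD (ENSG00000126088; 45010950 to 45015575, 10 exons) and PPOX (ENSG00000143224; 161166056 to 161178013, 13 exons) are on the plus strand of chromosome 1. ALAD (ENSG00000148218) runs from 113386312 to 113401290 on chromosome 9, with 12 exons, and UROS (ENSG00000188690) from 125784980 to 125823258 on chromosome 10, with 10 exons, both on the minus strand. FECH (ENSG00000066926) runs from 57544377 to 57586732 on chromosome 18, minus strand, with 11 exons. The annotation gives from 4 transcripts for CPOX to 27 for UROD and PPOX, which values per gene cannot tell apart. No member has a single exon, and none was listed at 0 in either library.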

How the data were processed

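RNA sequencing covered 2 libraries of NB4 cells, 1 per group, assigned from their labels. The authors deposited FPKM values per gene. The TruSeq RNA kit and a MiSeq were used, and the submitters' processing notes name fastp 0.20.0, HISAT2 2.0.4, StringTie 1.2.3 and GRCh38. The annotation release is not given in the sources used here. All 11619 listed genes are above 0.5 FPKM in at least one library. The values used here keep no counts, so no interval could be given.

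Here log2(FPKM + 1) was taken for all genes and sh-Control subtracted from sh-CRNDE. The threshold of 1.5-fold follows the study. No test was run. The calculation was checked on simulated fold changes in abundant genes only, above the levels of all members but ALAS1. The members and gene lists were chosen with earlier results of these data known. Named were CRNDE, the members, ALAS2, HMOX1, MPO and, in each list, genes past 1.5-fold, or the gene of largest change where none was. Outside this rule, MT-RNR2, NRF1 and EIF2AK1 were named, as were the genes marked as named after their values were seen. A few genes of this rule and of the lists are not reported here, and list counts leave them out. A pattern over 2 libraries is a single difference, so no gene was ranked by its likeness to a member. Identifiers of 11508 genes matched GENCODE release 44, and 111 did not. Alternatives were other pseudocounts, centring, quantile normalization, rescaling to TPM, a GC subtraction in 20 bins, a filter at 1 FPKM and a threshold of 2-fold. A median was taken to have moved when it shifted by over 0.1. Python 3.11.15, numpy 2.4.6, pandas 2.3.3 and matplotlib 3.10.9 were used.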

Additional observations from a re-analysis of the deposited data

How the results depend on the processing

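No member was past 1.5-fold under any of the 8 alternatives, and the median change of the members stayed between -0.16 and -0.05. CRNDE was lower past 1.5-fold under all of them. Depth is unknown and each group is 1 library, so none of these values has an error. The count over all genes was 3301 with a pseudocount of 0.1, 3481 with 0.01, 3133 on the TPM scale, 1239 under a filter at 1 FPKM in each library and 774 at 2-fold. Of the calls, 46.8% to 52.0% were higher across the settings. Of the 28 named genes past 1.5-fold, the GC subtraction took 7 under it (ABCB10, TSPO, SUCLA2, CYC1, MPO, ACO1 and CD79A), and the other scalings and pseudocounts took 0. At 2-fold 15 were under it. The filter at 1 FPKM left PPOX, LYRM4, SLC48A1, CEBPE and CD79A without a value.

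After the GC subtraction, precursor and mitochondrial transport held 1 gene past 1.5-fold, and heme A and cytochrome c maturation held 1, with a median of -0.035. Substrate supply and ALAS turnover held 3 with either smaller pseudocount, after quantile normalization and on the TPM scale, since LONP1 and OGDH then passed. After the GC subtraction its single call was CLPX, lower, in place of SUCLA2, higher. Heme breakdown and export held 2 with either pseudocount and on the TPM scale, and 0 under the filter. The added call was FLVCR2, lower at 0.968 and 0.386 FPKM. It was listed through sh-Control alone and is named after its value was seen. At 2-fold the counts were 0 for transport and for substrate supply, 1 for heme A and cytochrome c maturation, for heme proteins and for iron, 2 for iron-sulfur assembly and 3 for promyelocyte markers. The median of iron-sulfur assembly was -0.26 under the filter. That of heme proteins was -0.49 with either smaller pseudocount and -0.50 on the TPM scale, with CYB5A, listed through sh-Control alone, among the genes. Under the filter, which leaves CYB5A out, it was -0.39. That of promyelocyte markers was -0.98 after quantile normalization and -0.61 after the GC subtraction. Causes of these shifts were not tested, except that smaller pseudocounts and the TPM scale give low genes larger changes. No paired analysis was possible because each group has 1 library and no replicate number.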
